A study of Homo sapiens with 9 samples.

Results

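The genes described here are 10 genes of the actin cytoskeleton that are known as targets of serum response factor (SRF): the cytoplasmic actins ACTB and ACTG1, the tropomyosins TPM1, TPM2 and TPM4, the actin-bundling proteins TAGLN and TAGLN2, the calponin CNN2, the myosin light chain MYL9, and SRF itself. They and the other gene lists below were chosen by gene symbol, with earlier results of these data known. Counts set beside the shares of all genes are therefore a description. All 10 genes were found among the 60966 of the deposited tables, where 165 transcript rows belong to them. Their mRNA was measured by RNA-seq in H1299, an established line of human lung cancer cells of the non-small cell type. RNA was taken 48 h after the cells received a scrambled siRNA (Scramble) or an siRNA against FIBP, the FGF1 intracellular binding protein (Si-FIBP#1 or Si-FIBP#2). There were 3 samples per group. Nothing in the labels says whether they came from separate cultures, so the p-values measure the spread between these samples, which may be technical, and all 9 came from 1 cell line.

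Actin filaments are built from actin monomers. Tropomyosins lie along the filament, calponins and transgelins bind and bundle it, and myosin pulls on it once its regulatory light chain is phosphorylated. SRF is a transcription factor that binds the CArG box. It works with 2 families of cofactors. The myocardin-related factors MRTFA and MRTFB are held back by monomeric actin and drive cytoskeletal genes, including those of actin and SRF. The ternary complex factors ELK1, ELK3 and ELK4 answer to growth factor signalling and drive immediate early genes such as FOS and EGR1.

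The promoter sequences below are shown because the CArG box links these genes to SRF. RefSeq promoter windows of 300 bases (GRCh38.p14, most of it upstream of the start of transcription) were at hand for 7 of the 10 members, namely SRF, ACTG1, CNN2, TAGLN2, TPM1, TPM2 and TPM4. A CArG box without mismatch was found in 4 of the 7. The motif reads alike on both strands, and it was found in 1.29% of all 35116 windows (454) and in 1.60% of the 27305 genes that have one. Distances are counted from the RefSeq start of transcription of the window that holds the box. SRF and TPM4 also have windows without a box, and the GENCODE gene spans given below can start elsewhere. SRF has 2 boxes, which start 30 and 10 bases upstream of that start (chr6:43171214-43171293, plus strand). The box of ACTG1 lies 94 bases upstream (chr17:81512859-81512918, minus strand), that of CNN2 89 bases upstream (chr19:1026494-1026553, plus strand), and that of TPM4 173 bases upstream (chr19:16067340-16067399, plus strand). The sequences are 5′ to 3′ on the strand of the gene, with each box in capitals:
SRF: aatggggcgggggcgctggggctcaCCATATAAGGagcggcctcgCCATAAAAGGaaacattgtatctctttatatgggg
ACTG1: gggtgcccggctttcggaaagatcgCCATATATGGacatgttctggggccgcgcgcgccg
CNN2: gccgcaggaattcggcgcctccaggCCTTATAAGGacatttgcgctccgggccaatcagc
TPM4: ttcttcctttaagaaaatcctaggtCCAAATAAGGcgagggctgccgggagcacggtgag

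The values are FPKM, which are fragment numbers divided by transcript length and library size, summed here over the transcripts of each gene. The deposited tables contain no read counts. Steps between the lowest values correspond to about 20150000 to 23450000 fragments per library, an estimate that rests on an assumed length correction. FIBP, the targeted gene, was at 77.7 to 88.4 FPKM in the Scramble samples, at 4.30 to 7.77 after Si-FIBP#1 and at 5.92 to 8.21 after Si-FIBP#2. Between samples of a group, the correlation of log2 values across genes was 0.983 to 0.988. The lowest of these values were those of Si-FIBP#2 replicate 2 with the other samples of its group (0.9832 and 0.9836), and it was nearly as close to Si-FIBP#1 replicate 2 (0.9826). Without that library the number of members that passed was the same in each comparison (9, 9, 8 and 5). Between the siRNAs the members among them changed, as ACTG1 was lost and TPM4 passed as higher. The genes called at 2-fold between the siRNAs went from 84 to 128. The keratins KRT8 and KRT18 of an epithelial cell were present, while none of 9 muscle and stromal markers reached the level for testing. Summed over the list, those markers were at 0.58 to 1.07 FPKM in Scramble, 1.24 to 2.01 after Si-FIBP#1 and 1.42 to 3.67 after Si-FIBP#2, which is low beside all members but TAGLN. COL1A1 and DCN supplied most of the sum in the depleted cells, and LUM was at 0 in all 9 samples. PTPRC and PECAM1, of blood and endothelial cells, together stayed at or under 0.27 FPKM.

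With either siRNA against FIBP, most of the 10 genes were lower than in Scramble. In the Scramble samples the members made up 0.70% to 0.728% of the summed FPKM of a library, against 0.447% to 0.479% after Si-FIBP#1 and 0.416% to 0.466% after Si-FIBP#2. Most of this share was that of ACTB and ACTG1, at 0.568% to 0.597%, 0.366% to 0.397% and 0.345% to 0.386%. The order of the members' levels in Scramble, each gene above the next with no overlap between samples, was ACTG1, ACTB, TPM2, TPM4, TAGLN2, TPM1, CNN2, SRF, MYL9 and TAGLN. The place of ACTG1 above ACTB rests on 1 short transcript row described with the actins. Levels are relative to the whole library, and in these bulk samples fewer expressing cells and less RNA per cell cannot be told apart.

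Differences were tested with limma on log2(FPKM + 1) over all 14985 genes that reached 1 FPKM in 3 samples or more, with Benjamini-Hochberg adjustment. Passed means an adjusted p under 0.05, and called means passed with a change of over 2-fold. All 10 members were tested. After Si-FIBP#1, 8 members passed as lower and 1 (MYL9) as higher, where 19.9% of all genes passed as lower and 27.8% as higher. After Si-FIBP#2, 9 passed as lower and 0 as higher, where the shares of all genes were 17.7% and 31.1%. The split of all genes depends on the scaling. After Si-FIBP#2, 36.3% of the genes that passed were lower, and with median-ratio scaling 49.0%. The median log2 fold change of the members was -0.56 after Si-FIBP#1 and -0.68 after Si-FIBP#2, and the median over all genes tested was 0.07 and 0.11. With median-ratio scaling the medians of the members were -0.62 and -0.78, and those of all genes 0.02 and 0.03. Both comparisons share the Scramble samples. With the samples of both siRNAs set against Scramble, 8 members passed as lower and 0 as higher, where 20.3% of all genes passed as lower and 32.6% as higher.

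**Figure D1:**
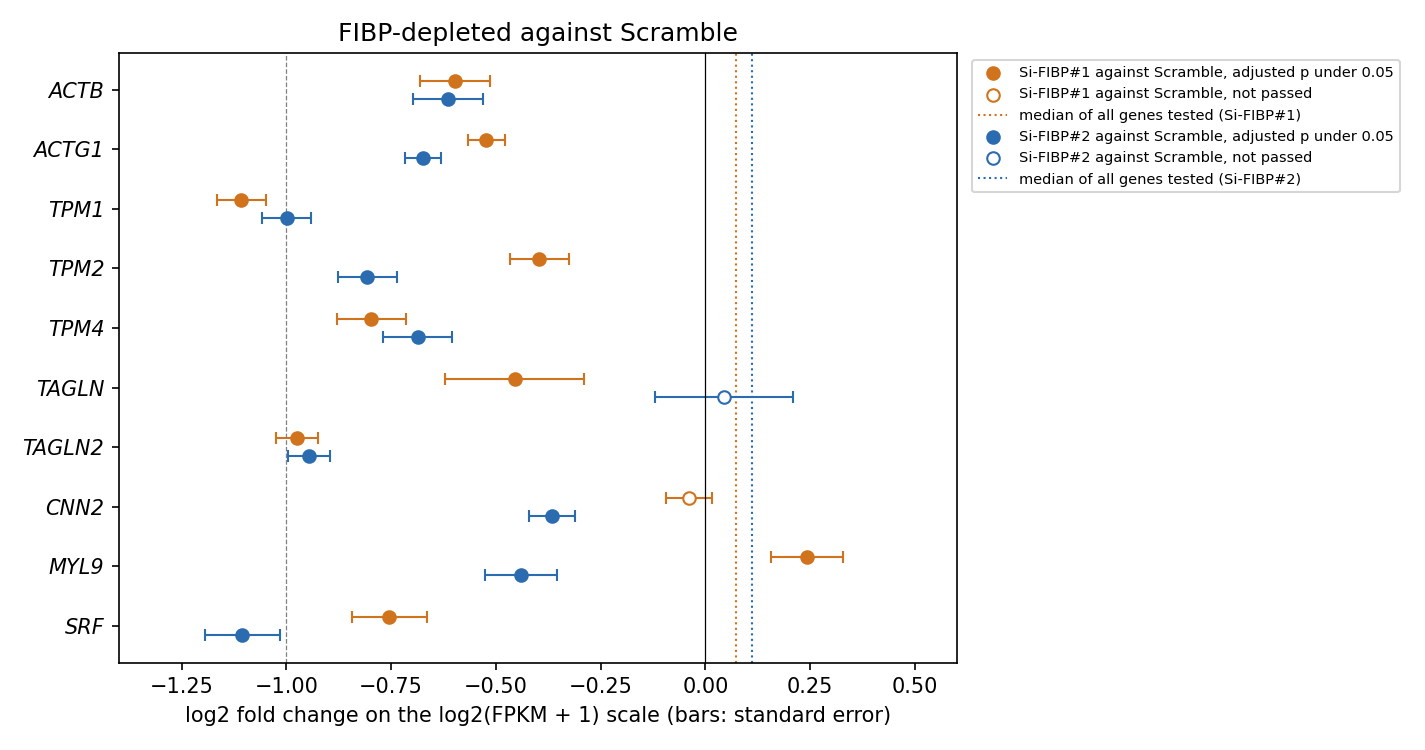
Log2 fold change of each member (points) with its standard error (bars) for Si-FIBP#1 and Si-FIBP#2 against Scramble, on the log2(FPKM + 1) scale. Filled points passed at an adjusted p under 0.05. Dotted lines mark the median of all genes tested, 0.07 and 0.11, and the dashed line a 2-fold fall. Most members lie to the left of both dotted lines, with MYL9 after Si-FIBP#1 on the right.

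SRF, the transcription factor of the group, lies on chromosome 6 (43171299 to 43181507, plus strand, GENCODE 29, GRCh38). Its level was 24.3, 22.0 and 21.1 FPKM in the Scramble samples, 14.7, 12.5 and 11.7 after Si-FIBP#1, and 10.3, 9.70 and 9.65 after Si-FIBP#2. The 3 groups did not overlap, after Si-FIBP#2 the lowest. The log2 fold change was -0.75 ± 0.09 (SE, n = 3 per group, limma adjusted p = 0.000118) after Si-FIBP#1 and -1.11 ± 0.09 (adjusted p = 1.25e-05) after Si-FIBP#2. SRF was called lower after Si-FIBP#2, where 2.13% of all genes were, and kept that call in all 18 alternatives. TPM1 and TAGLN2 fell short of 2-fold there, but TPM1 was called lower in 8 of 18 alternatives, among them those without Scramble replicate 1 or 3 or Si-FIBP#2 replicate 3, and TAGLN2 was with median-ratio scaling (-1.04). Nearly all of the level of SRF, 99.4% in Scramble, came from 1 transcript (ENST00000265354, encoding 508 residues).

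ACTB and ACTG1 encode the cytoplasmic β- and γ-actin. ACTB (chromosome 7, 5527147 to 5563784, minus strand) was at 1945, 1869 and 1800 FPKM in Scramble, 1285, 1282 and 1147 after Si-FIBP#1 and 1298.97, 1061 and 1322 after Si-FIBP#2. All depleted samples lay below all Scramble samples, and the samples of the 2 siRNAs overlapped. Its mean was 66.1% of the Scramble mean after Si-FIBP#1 (log2 fold change -0.60 ± 0.08, adjusted p = 0.000308) and 65.6% after Si-FIBP#2 (-0.61 ± 0.08, adjusted p = 0.00026). ACTG1 (chromosome 17, 81509971 to 81523847, minus strand) was at 2766, 2646 and 2656 FPKM in Scramble, 1859, 1968 and 1790 after Si-FIBP#1 and 1735, 1635 and 1686 after Si-FIBP#2. Its 3 groups did not overlap. It fell by 0.52 ± 0.04 on the log2 scale after Si-FIBP#1 (adjusted p = 1.38e-05) and by 0.67 ± 0.04 after Si-FIBP#2 (adjusted p = 3.72e-06). With all rows counted, the share of ACTB in the sum of both actins was 41.0% ± 0.54 (SD, n = 3), 39.8% ± 0.95 and 42.0% ± 2.39 in the 3 groups.

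The coding sequences of both actins, 1125 bases each, are 91.3% identical, with a longest identical run of 59 bases, which is shorter than the reads of 150 bases. Reads could still be split between the actins and their processed copies elsewhere in the genome in ways that the tables do not show. A further limit is a short ACTG1 row of 471 nt (ENST00000570382), which held 39.8% of the gene's level in Scramble, since levels of short transcripts depend strongly on the length correction. Without rows under 600 nt, an alternative added after the data were seen, ACTG1 still fell by 0.58 after Si-FIBP#1 (adjusted p = 1.61e-06) and by 0.66 after Si-FIBP#2 (adjusted p = 6.73e-07). The levels changed order without those rows. In the Scramble samples ACTB was then at 1876, 1700 and 1660 FPKM and ACTG1 at 1713, 1592 and 1550, ranges that overlap, and ACTB held 51.9% ± 0.35 (SD, n = 3) of both actins in Scramble, 51.7% ± 0.58 after Si-FIBP#1 and 52.7% ± 2.60 after Si-FIBP#2.

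Tropomyosins stabilise actin filaments, and each tropomyosin gene gives several products by alternative promoters and splicing. TPM1 (chromosome 15, 63042632 to 63071915, plus strand) was at 139, 145 and 138 FPKM in Scramble, 66.6, 61.9 and 65.4 after Si-FIBP#1 and 68.0, 66.0 and 75.4 after Si-FIBP#2. Every depleted sample was near or under 50% of the Scramble samples, and both siRNAs overlapped. After Si-FIBP#1 the log2 fold change was -1.11 ± 0.06 (adjusted p = 1.01e-06), so that TPM1 was called lower with that siRNA, where 3.11% of all genes were, also in all 18 alternatives. TAGLN2 was called lower there only with median-ratio (-1.03) or TPM scaling. After Si-FIBP#2 the log2 fold change of TPM1 was -0.999 ± 0.06 (adjusted p = 2.14e-06), just short of 2-fold. With both siRNAs together TPM1 was called lower, against 2.45% of all genes, and with median-ratio scaling TAGLN2 and SRF were as well.

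TPM2 (chromosome 9, 35681992 to 35690121, minus strand) was at 369, 367 and 375 FPKM in Scramble, 309, 276 and 260 after Si-FIBP#1 and 225, 196 and 213 after Si-FIBP#2. The 3 groups were apart, after Si-FIBP#2 the lowest, and the log2 fold changes were -0.40 ± 0.07 (adjusted p = 0.00125) and -0.81 ± 0.07 (adjusted p = 1.81e-05). TPM4 (chromosome 19, 16067021 to 16103005, plus strand) was at 216, 231 and 225 FPKM in Scramble, 129, 124 and 132 after Si-FIBP#1 and 151, 119 and 149 after Si-FIBP#2. It fell to 57.4% and 62.3% of the Scramble mean (log2 fold change -0.80 ± 0.08, adjusted p = 5.13e-05, and -0.69 ± 0.08, adjusted p = 0.000136). Of the summed level of the 3 tropomyosin genes, TPM2 held 50.4% ± 0.84 (SD, n = 3) in Scramble, 59.3% ± 2.24 after Si-FIBP#1 and 50.3% ± 1.37 after Si-FIBP#2. TPM3, the fourth tropomyosin gene and no member, had means of 349, 316 and 355 FPKM and passed as lower after Si-FIBP#1 alone (log2 fold change -0.14, adjusted p = 0.0163). That call was lost without Scramble replicate 3 (adjusted p = 0.0613) or Si-FIBP#1 replicate 1 (adjusted p = 0.0587).

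The transcripts of the tropomyosins did not share 1 pattern. Transcripts were tested in a fit over all 47662 that passed the same filter, and those of the members with at least 5% of their gene's level in any group are described. Of these, 32 were tested, and the 6 of TAGLN were all too low. After Si-FIBP#1, 23 of the 32 passed as lower and 2 as higher, where 10.0% and 10.7% of all transcripts did. After Si-FIBP#2, 27 passed as lower and 0 as higher, where the shares were 8.46% and 10.6%. Together, 25 passed as lower and 1 as higher, where the shares were 11.0% and 13.0%. Some of the 32 reached 5% in part of the groups only. TPM1-202 and TPM1-212 did so in Scramble alone and passed as lower with both siRNAs. The CNN2 transcript ENST00000348419 did so in the depleted groups alone and was 1 of the 2 higher after Si-FIBP#1. TPM1-226 did so after Si-FIBP#1 alone. The background of all transcripts was not chosen in this way, so the counts set beside it are a description. The 32 also come from few genes, among them 7 of TPM4 and 6 each of TPM1 and ACTB. Overlapping transcripts of a gene are not independent, so these counts partly repeat the changes of the genes. The count of 27 was 17 without Scramble replicate 2 and also 17 without a filter on low values.

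The leading TPM1 transcript, TPM1-206 (ENST00000358278, 1717 nt, encoding 284 residues), was at 55.3, 56.4 and 51.6 FPKM in Scramble, 21.2, 14.0 and 17.5 after Si-FIBP#1 and 17.9, 13.7 and 17.1 after Si-FIBP#2. It fell by 1.60 ± 0.15 on the log2 scale (adjusted p = 0.000187) and by 1.69 ± 0.15 (adjusted p = 0.000162). TPM1-202 (ENST00000288398, also 284 residues) went from 8.17, 9.96 and 8.59 FPKM to 1.02, 0.96 and 1.02 after Si-FIBP#1 and 1.81, 1.93 and 1.99 after Si-FIBP#2, with log2 fold changes of -2.30 ± 0.11 (adjusted p = 1.22e-05) and -1.76 ± 0.11 (adjusted p = 4.09e-05). TPM1-202 is described here only through its share of TPM1 in Scramble (6.35%, against 1.55% after Si-FIBP#1 and 2.74% after Si-FIBP#2). A choice by the level in Scramble favours transcripts that are lower in the depleted groups, so its p-values are a description. TPM1-206 and TPM1-202 both encode the long form of the protein. Their log2 fold changes were larger in size than that of the gene as a whole (-1.11 and -0.999), a difference that was not tested. For TPM1-202 the way it was chosen limits that comparison.

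TPM1-208 (ENST00000404484, 943 nt), which encodes a shorter tropomyosin of 248 residues, was at 29.8, 30.4 and 31.0 FPKM in Scramble, 22.5, 21.9 and 23.0 after Si-FIBP#1 and 27.3, 23.6 and 26.7 after Si-FIBP#2. Its samples were below Scramble with both siRNAs, by far less than those of TPM1-206. The log2 fold change was -0.42 ± 0.07 after Si-FIBP#1 (adjusted p = 0.00357) and -0.23 ± 0.07 after Si-FIBP#2 (adjusted p = 0.05001, which did not pass, and 0.0471 without Si-FIBP#2 replicate 1). Its share of TPM1 was 21.7% ± 0.74 (SD, n = 3) in Scramble, 34.8% ± 0.83 after Si-FIBP#1 and 37.1% ± 2.70 after Si-FIBP#2, while that of TPM1-206 was 38.8% ± 1.21, 27.1% ± 4.60 and 23.3% ± 2.86. For both transcripts the shares in depleted and Scramble samples did not overlap. The minor TPM1-214, TPM1-212 and TPM1-226 had lower means after both siRNAs as well. After Si-FIBP#1, TPM1-214 (limma adjusted p = 0.085) and TPM1-226 (0.3145) did not pass. After Si-FIBP#2 each passed in the main fit (0.0354, 0.0167 and 0.0465). GENCODE types TPM1-214 and TPM1-212 as nonsense-mediated decay. TPM1-212 went from 6.11 to 8.68 FPKM in the Scramble samples to between 0 and 0.66 after Si-FIBP#1. It is described here only through its share in Scramble (5.54%, against 0.58% and 3.87%). How reads were divided between overlapping transcripts was decided by the authors' software, and the error of that step is not in the tables.

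The leading TPM2 transcript, TPM2-201 (ENST00000329305), was at 255, 262 and 264 FPKM in Scramble, 188, 158 and 147 after Si-FIBP#1 and 136, 113 and 128 after Si-FIBP#2. It fell by 0.67 ± 0.09 (adjusted p = 0.00176) and by 1.05 ± 0.09 (adjusted p = 0.000194). TPM2-203 (ENST00000378292) was at 49.3, 51.9 and 45.2 FPKM in Scramble, 56.3, 60.9 and 55.8 after Si-FIBP#1 and 42.9, 40.2 and 36.6 after Si-FIBP#2, and TPM2-212 (ENST00000647435) at 29.8, 21.3 and 28.7, then 42.8, 32.6 and 36.4, then 20.1, 20.6 and 20.7. Both were above all Scramble samples after Si-FIBP#1 and below them after Si-FIBP#2. TPM2-212 passed as higher after Si-FIBP#1 (log2 fold change 0.48 ± 0.14, adjusted p = 0.0374), a call lost in 9 of 16 alternatives, among them those without Scramble replicate 2 or 3, Si-FIBP#1 replicate 1 or 3, or Si-FIBP#2 replicate 1 or 3 (adjusted p from 0.0521 to 0.110). TPM2-203 did not pass there (0.24 ± 0.08, adjusted p = 0.0627). After Si-FIBP#2 TPM2-203 passed as lower (-0.29 ± 0.08, adjusted p = 0.0348), a call lost without Scramble replicate 1 or 2 or Si-FIBP#2 replicate 2 or 3 (adjusted p up to 0.115), and TPM2-212 did not pass (-0.35 ± 0.14, adjusted p = 0.110, and 0.0254 without Scramble replicate 2). All 7 of the TPM4 transcripts described passed as lower after Si-FIBP#1 (log2 fold changes from -0.71 to -0.90), and after Si-FIBP#2 all but ENST00000659595 did (-0.49, adjusted p = 0.0835).

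**Figure D2:**
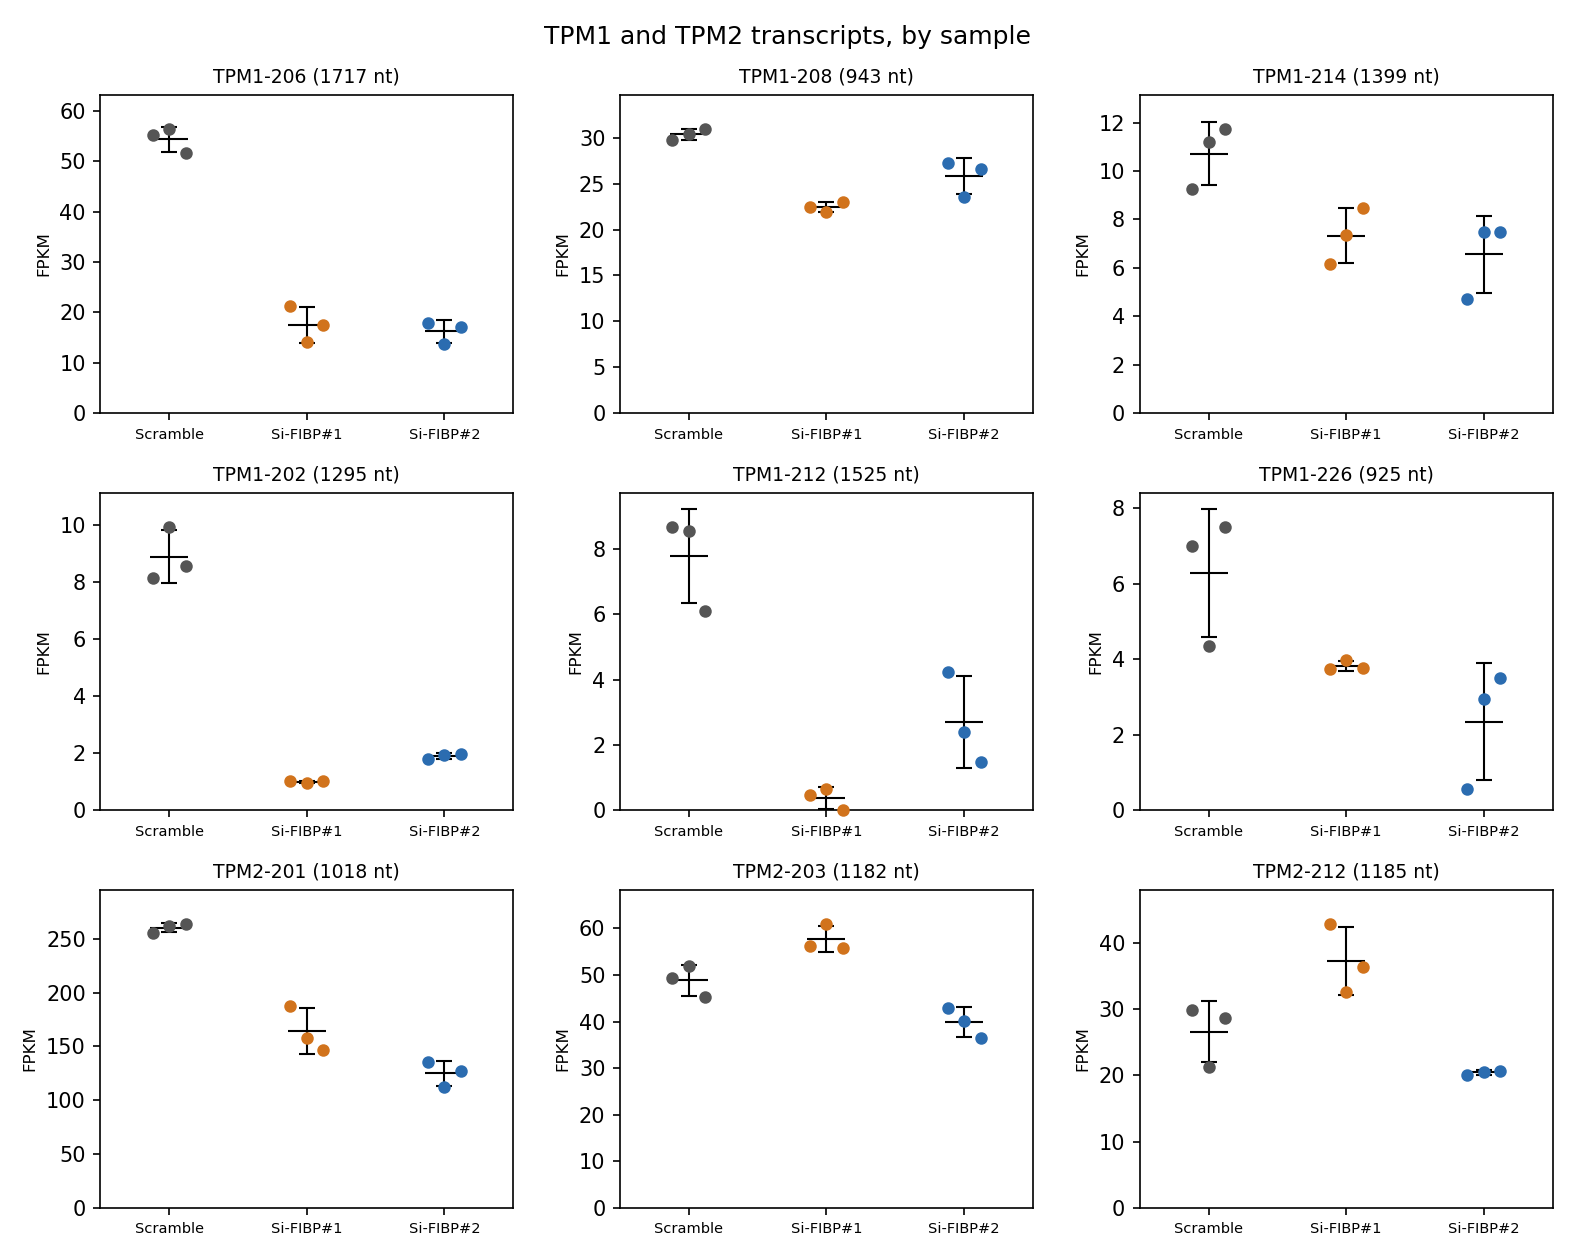
FPKM of the 6 TPM1 and 3 TPM2 transcripts with at least 5% of their gene's level in any group, in each sample (points), with the mean and SD of each group (black bars). Each vertical axis starts at 0 and has its own range. TPM1-206 and TPM1-202 fell with both siRNAs, TPM1-208 remained closer to Scramble, and TPM2-203 and TPM2-212 lay above Scramble after Si-FIBP#1 and below it after Si-FIBP#2.

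Transgelins are small calponin-related proteins that bind actin filaments. TAGLN2 (chromosome 1, 159918107 to 159925732, minus strand), the form common outside smooth muscle, was at 180, 170 and 168 FPKM in Scramble, 89.7, 88.2 and 84.3 after Si-FIBP#1 and 91.4, 84.9 and 91.5 after Si-FIBP#2. Both siRNAs brought it to near 50% of Scramble, with samples that overlapped between siRNAs. The log2 fold changes were -0.98 ± 0.05 (adjusted p = 8.91e-07) and -0.95 ± 0.05 (adjusted p = 1.31e-06). Its single transcript above 5% of the gene (ENST00000368097) held 98.1% of the level in Scramble.

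TAGLN (chromosome 11, 117199321 to 117204782, plus strand), a marker of smooth muscle, was the lowest member, at 1.84, 2.54 and 2.09 FPKM in Scramble, 1.36, 1.66 and 0.92 after Si-FIBP#1 and 1.95, 2.00 and 2.85 after Si-FIBP#2. By the estimate of depth these levels rest on about 34 to 78 fragments per library. Samples of Si-FIBP#1 were below those of Scramble, while those of Si-FIBP#2 overlapped them. After Si-FIBP#1 it passed as lower (log2 fold change -0.46 ± 0.17, adjusted p = 0.0453, and -0.70 with 0.1 in place of 1 added to each FPKM as pseudocount), and the call was lost in 8 of 17 alternatives. Among them were those without Scramble replicate 2 or 3, Si-FIBP#1 replicate 1 or 3, or Si-FIBP#2 replicate 1 (adjusted p from 0.0515 to 0.148), with no filter on low values (0.1205) and without assembled transcripts (0.05195). After Si-FIBP#2 the value was 0.04 ± 0.17 (adjusted p = 0.845).

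CNN2, a calponin of non-muscle cells (chromosome 19, 1026581 to 1039068, plus strand), was at 81.5, 80.5 and 84.8 FPKM in Scramble, 81.3, 81.0 and 77.9 after Si-FIBP#1 and 63.9, 59.5 and 67.5 after Si-FIBP#2. The Si-FIBP#1 samples overlapped Scramble and those of Si-FIBP#2 were below both other groups. The log2 fold change was -0.04 ± 0.05 after Si-FIBP#1 (adjusted p = 0.599) and -0.37 ± 0.05 after Si-FIBP#2 (adjusted p = 0.00049). A minor transcript, ENST00000348419, is described only through its share of CNN2 in the depleted groups (5.33% and 5.1%, against 2.22% in Scramble), so its p-values are a description. It went the other way after Si-FIBP#1, at 2.20, 2.45 and 0.83 FPKM in Scramble against 3.89, 5.35 and 3.56 (log2 fold change 0.94 ± 0.25, adjusted p = 0.0292). That call was lost without Scramble replicate 3 (adjusted p = 0.0505) or Si-FIBP#1 replicate 1 or 2 (adjusted p = 0.0611 and 0.0971). Its paralog CNN3, no member, fell with both siRNAs, with means of 92.6, 52.4 and 53.4 FPKM (log2 fold change -0.81, adjusted p = 4.09e-06, and -0.78, adjusted p = 5.76e-06).

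MYL9 encodes a regulatory light chain of smooth muscle and non-muscle myosin (chromosome 20, 36541484 to 36551447, plus strand). It was at 18.9, 20.4 and 18.9 FPKM in Scramble, 25.8, 23.1 and 20.8 after Si-FIBP#1 and 14.9, 14.3 and 13.0 after Si-FIBP#2. The Si-FIBP#1 samples lay above Scramble and the Si-FIBP#2 samples below it. After Si-FIBP#1 it passed as higher (log2 fold change 0.24 ± 0.09, adjusted p = 0.0419). The call was lost without any of the 3 Scramble samples or without Si-FIBP#1 replicate 1 or 2 (adjusted p from 0.0548 to 0.141). It was also lost with median-ratio (0.106) or TPM scaling (0.0889) and with no filter on low values. After Si-FIBP#2 it fell by 0.44 ± 0.09 (adjusted p = 0.00232). Its level was divided between ENST00000346786 (56.8% in Scramble, encoding 118 residues) and ENST00000279022 (43.2%, 172 residues). Neither passed after Si-FIBP#1 (adjusted p = 0.0676 and 0.583), and both passed as lower after Si-FIBP#2 (log2 fold change -0.40, adjusted p = 0.0306, and -0.44, adjusted p = 0.0470), calls that were each lost without any 1 of the Scramble samples (adjusted p from 0.0587 to 0.143) and without Si-FIBP#2 replicate 2 or 3 (from 0.0504 to 0.114). The second was also lost without Si-FIBP#2 replicate 1 (adjusted p = 0.1195) or Si-FIBP#1 replicate 2 (adjusted p = 0.0652).

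The siRNAs were also compared with each other, which asks whether 2 sequences against the same mRNA gave like levels. FIBP itself did not pass (log2 difference, Si-FIBP#2 minus Si-FIBP#1, 0.13 ± 0.18, adjusted p = 0.686). Of the members, 5 passed as lower after Si-FIBP#2 and 0 as higher, where 5.80% and 9.58% of all genes did. Of all genes that passed, 37.7% were lower, a share that was 51.2% with median-ratio scaling and 25.3% with TPM scaling. The log2 difference was -0.68 ± 0.09 for MYL9 (adjusted p = 0.00133), -0.41 ± 0.07 for TPM2 (adjusted p = 0.00512), -0.33 ± 0.05 for CNN2 (adjusted p = 0.00488), -0.35 ± 0.09 for SRF (adjusted p = 0.0278) and -0.15 ± 0.04 for ACTG1 (adjusted p = 0.0466).

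MYL9, TPM2 and CNN2 passed in all 18 alternatives. The difference in SRF was lost without Si-FIBP#1 replicate 1 or 2 or Si-FIBP#2 replicate 1 or 3 (adjusted p from 0.0522 to 0.0884), and also with no filter on low values and with only the groups compared. That in ACTG1 was lost in 14 of 18 alternatives, 8 of which leave out a library (every Scramble and Si-FIBP#2 sample and Si-FIBP#1 replicate 1 and 2, adjusted p from 0.0562 to 0.159), and it was -0.08 without rows under 600 nt (adjusted p = 0.250). ACTB (-0.02 ± 0.08, adjusted p = 0.917), TAGLN2 (0.03 ± 0.05, adjusted p = 0.744), TPM1 (0.11 ± 0.06, adjusted p = 0.250), TPM4 (0.11 ± 0.08, adjusted p = 0.415) and TAGLN (0.50 ± 0.17, adjusted p = 0.0709) did not pass, which does not show that they were alike. TPM4 passed as higher without Si-FIBP#2 replicate 2 (0.22, adjusted p = 0.0097). Among the 32 transcripts, 4 passed as lower and 2 as higher, where 1.06% and 1.40% of all transcripts did, and leaving out single samples of either siRNA gave 0 to 5 in all.

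Of the 7 cofactors and regulators of SRF in the list, 6 were tested. After Si-FIBP#1, 1 passed as higher and 1 as lower, and after Si-FIBP#2, 2 and 1. These counts are near the shares of all genes, which were 27.8% higher and 19.9% lower after Si-FIBP#1 and 31.1% and 17.7% after Si-FIBP#2. ELK4 passed as lower with both siRNAs, with means of 4.97 FPKM in Scramble, 3.46 and 3.64 (log2 fold change -0.42, adjusted p = 0.00708, and -0.36, adjusted p = 0.0148). ELK3 passed as higher, with means of 49.4, 59.3 and 55.7 FPKM (0.26, adjusted p = 0.00553, and 0.17, adjusted p = 0.0401), and its call after Si-FIBP#2 was lost in 9 of 18 alternatives (up to 0.345, with median-ratio scaling, and 0.0578 to 0.119 without any 1 of the Scramble samples, Si-FIBP#1 replicate 2, or Si-FIBP#2 replicate 2 or 3). MRTFA was at 6.16, 7.63 and 7.89 FPKM. It did not pass after Si-FIBP#1 (0.27, adjusted p = 0.0628) and passed as higher after Si-FIBP#2 (0.31, adjusted p = 0.0367), a call lost in 10 of 18 alternatives (0.0526 to 0.127 without Scramble replicate 2 or 3, Si-FIBP#1 replicate 2, or Si-FIBP#2 replicate 2 or 3). MRTFB (means 3.87, 3.93 and 3.90 FPKM), ELK1 (22.0, 20.8 and 20.5) and SCAI (0.87, 0.82 and 0.68), an inhibitor of MRTF and SRF, did not pass with either siRNA. MYOCD was too low to be tested. These are mRNA levels, and the tables hold nothing on where in the cell the MRTF proteins were.

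Other known targets of MRTF and SRF are a list of 18, of which 16 were tested. With each siRNA 11 of the 16 passed as lower, 0 passed as higher and 5 (ACTA2, ZYX, LPP, PDLIM5 and TGFB1I1) did not pass, where 19.9% and 17.7% of all genes passed as lower and 27.8% and 31.1% as higher. The median log2 fold change was -0.65 with both, against 0.07 and 0.11 over all genes. CCN2, a matrix signalling protein that is also a target of YAP, was at 44.8 to 49.9 FPKM in Scramble, 15.8 to 16.6 after Si-FIBP#1 and 7.99 to 11.3 after Si-FIBP#2 (log2 fold change -1.47, adjusted p = 4.83e-06, and -2.20, adjusted p = 8.21e-07). Its relative CCN1 fell by 1.14 (adjusted p = 1.54e-05) and by 1.66 (adjusted p = 2.15e-06), and the actin crosslinker FLNA by 1.41 (adjusted p = 0.000185) and by 1.54 (adjusted p = 0.000112). ACTA2, the smooth muscle actin (means 4.45, 5.24 and 5.19 FPKM, adjusted p = 0.301 and 0.377), and ZYX, a focal adhesion protein (94.8, 94.0 and 93.6 FPKM, adjusted p = 0.879 and 0.783), did not pass. Of the 17 genes of this list with a promoter window, 7 hold a CArG box. As a description, the tested genes with a promoter window that are neither members nor in any list were split by the box. Of the 141 with a box, 29.08% passed as lower and 21.99% as higher after Si-FIBP#1, and 24.82% and 22.7% after Si-FIBP#2. Of the 9996 without a box, 21.97% and 29.22% did so after Si-FIBP#1, and 19.67% and 33.03% after Si-FIBP#2. The median log2 fold change of the genes with a box was near 0, at -0.02 and 0.03, against 0.07 and 0.10 without a box.

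The immediate early genes, which SRF drives with the ternary complex factors, are a list of 8 of which 6 were tested. After Si-FIBP#1, 5 passed as lower and 0 as higher, with a median of -0.55, where 19.9% and 27.8% of all genes passed. After Si-FIBP#2, 3 passed as lower and 1 (MCL1) as higher, with a median of -0.18, where the shares of all genes were 17.7% and 31.1%. EGR1 was at 8.45 to 9.35 FPKM in Scramble, 1.63 to 2.35 after Si-FIBP#1 and 3.22 to 7.55 after Si-FIBP#2 (log2 fold change -1.70, adjusted p = 0.000251, and -0.83, adjusted p = 0.0133). FOS had means of 5.03, 1.52 and 3.09 FPKM (-1.25, adjusted p = 4.52e-05, and -0.56, adjusted p = 0.00509). JUNB did not pass (-0.03, adjusted p = 0.760, and -0.12, adjusted p = 0.172), and MCL1, a survival factor, was at -0.20 (adjusted p = 0.0148) and 0.36 (adjusted p = 0.00051). The fall of MCL1 after Si-FIBP#1 was lost without Si-FIBP#1 replicate 2 (adjusted p = 0.0564). In the test of Si-FIBP#2 against Si-FIBP#1, 4 of the 6 passed as higher and 0 as lower, where 9.58% and 5.80% of all genes did. They were EGR1 (0.87, adjusted p = 0.0312), FOS (0.69, adjusted p = 0.00726), IER2 (0.17, adjusted p = 0.0471) and MCL1 (0.56, adjusted p = 0.000381), while all 5 members that passed were lower. The difference in EGR1 was 0.56 without Si-FIBP#2 replicate 2. Its call was lost without any 1 of the Si-FIBP#1 samples or Si-FIBP#2 replicate 3 (adjusted p from 0.0528 to 0.102), and that of IER2 in 11 of 18 alternatives, 7 of which leave out a library (all but Scramble replicate 1 and Si-FIBP#2 replicate 2, up to 0.131).

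Of 22 regulators of actin turnover, all tested, 6 passed as higher and 7 as lower after Si-FIBP#1, and 3 and 7 after Si-FIBP#2, with medians of -0.03 and -0.02. Of all genes, 27.8% and 31.1% passed as higher and 19.9% and 17.7% as lower. The 6 that passed as higher after Si-FIBP#1 were 2 with either other scaling and 2 or 3 without any 1 of the Scramble or Si-FIBP#1 samples, where 7 or 8 passed as lower. WDR1, which helps cofilin take filaments apart, fell by 0.64 (adjusted p = 1.83e-05) and 0.76 (adjusted p = 7.68e-06) on the log2 scale, and the monomer-binding profilin PFN1 by 0.59 (adjusted p = 2.03e-05) and 0.55 (adjusted p = 3.31e-05). The capping protein CAPG, at only 0.63, 1.76 and 1.94 FPKM on average, passed as higher (0.71, adjusted p = 0.0205, and 0.85, adjusted p = 0.0088, with 1.24 and 1.48 at a pseudocount of 0.1), and its call after Si-FIBP#1 was lost without Scramble replicate 2 or 3 or Si-FIBP#1 replicate 1 or 2 (up to 0.0651). All Scramble samples had CAPG under 1 FPKM, so it reached the level for testing through depleted samples alone. The cofilin CFL2 passed as higher (0.21, adjusted p = 0.0383, and 0.47, adjusted p = 0.000533), with the former lost in 8 of 18 alternatives (0.134 with median-ratio scaling, and 0.0719 to 0.123 without any 1 of the Scramble samples or Si-FIBP#1 replicate 1 or 3). None of the 20 genes of this list with a promoter window holds a CArG box.

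KRT18 and KRT8, the keratins of simple epithelia, fell as well. KRT18 was at 467 to 483 FPKM in Scramble, 193 to 226 after Si-FIBP#1 and 143 to 198 after Si-FIBP#2 (-1.19, adjusted p = 2.01e-05, and -1.45, adjusted p = 6.88e-06), and KRT8 had means of 107, 73.4 and 75.9 FPKM (-0.53, adjusted p = 0.000335, and -0.49, adjusted p = 0.000542). The values of KRT8 were -0.35 and -0.33 without assembled transcripts and -0.96 and -0.86 without transcripts under 600 nt. The part of the muscle, stromal and keratin markers in the members' values was not tested.

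Over the 9 samples, the genes whose log2 levels were most like a member's were sought among 10005 genes with a mean of at least 5 FPKM. The members themselves were left out of these 10005. As a description, DBNDD2 (Pearson r = 0.993), GAS2L1 and EIF4A1 were nearest to ACTB, MCM5 (r = 0.995), TEAD4 and QTRT2 to TPM1, ID1 (r = 0.995), ASAP1 and ZNF207 to SRF, and TTLL5 (r = 0.950), KIAA0586 and CFL1 to TAGLN. The points share libraries and 3 groups, so any gene that differs between the groups in like steps has a high r.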

How the data were processed

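Per the labels and the study's methods, poly(A)-selected RNA of H1299 cells was sequenced from both ends with reads of 150 bases. The authors deposited 1 table per sample with an FPKM value for each Ensembl or assembled transcript, made with HISAT2 and StringTie according to the submitters' processing notes. The unit was inferred from the values. Genome build and annotation are not given in the sources used here, so positions and transcript names come from GENCODE release 29 (GRCh38), matched by identifier (26 of 32 transcripts described), and promoters from RefSeq. Some matched transcripts differ in length from release 29, such as ENST00000265354 of SRF (4231 nt deposited, 4202 in release 29). Others are ENST00000279022 of MYL9 (2786 and 2821) and ENST00000473257 of ACTB (1687 and 933). Numbers of residues are those of release 29.

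FPKM were summed per gene and tested with limma 3.58.1 in R 4.3.3 (pseudocount 1, mean-variance trend, 9 samples in 1 fit). Sums, searches and plots used numpy 2.4.6, pandas 2.3.3 and matplotlib 3.10.9 under Python 3.11.15. The members, gene lists, tests and alternatives were chosen with earlier results of these data known. The text names all members, every cofactor tested, and from each other list the 2 highest, the 2 lowest and any gene called with both siRNAs. The result of 1 further list is not reported here.

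Fragments per library were estimated from the steps between low values of genes with 1 transcript. Taking 240 to 300 bases off the length, chosen after the values were seen, raised the mean cosine of the steps (1 where all are whole) from between 0.58 and 0.676 to between 0.772 and 0.847. FPKM carry no counting interval, so precision is given by the spread between samples.

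In simulated data with 14985 genes, 200 were lowered. The comparison of Si-FIBP#1 with Scramble found 61.5% of falls of 0.7 on the log2 scale and 94.5% of falls of 1.5. That of Si-FIBP#2 found 72.5% and 93%. All groups were drawn with the same mean and spread per gene, so the shares differ between the siRNAs only by the draw. Far more genes passed in the data (2976 as lower and 4170 as higher with Si-FIBP#1). Since this changes the adjustment, the shares do not carry over to the data. Alternatives were 2 other scalings, a pseudocount of 0.1, no filter or one of 5 FPKM, only the groups compared, the replicate number as a block, leaving out each sample, no assembled transcripts and, added later, no transcripts under 600 nt.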

Additional observations from a re-analysis of the deposited data

Results flagged for a closer look

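For 5 members the effects of the siRNAs differed in the test of Si-FIBP#2 against Si-FIBP#1 (limma, adjusted over all genes). All 5 were lower after Si-FIBP#2, where 5.80% of all genes passed as lower and 9.58% as higher. The log2 difference was -0.68 for MYL9, -0.41 for TPM2, -0.33 for CNN2, -0.35 for SRF and -0.15 for ACTG1. In each of these genes all 3 Si-FIBP#2 samples lay below all 3 Si-FIBP#1 samples, a separation not counted over all genes. TAGLN, which did not pass, went the other way, at 1.95 to 2.85 FPKM after Si-FIBP#2 against 0.92 to 1.66 after Si-FIBP#1. The differences in SRF and ACTG1 were lost in 6 and 14 of 18 alternatives.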

How the results depend on the processing

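No value that passed changed direction in any alternative. With both siRNAs, ACTB, ACTG1, TAGLN2, TPM1, TPM2, TPM4 and SRF passed as lower in every alternative. The number of members that passed with Si-FIBP#1 (9) was 7 to 9 over all alternatives, with Si-FIBP#2 it was 9 throughout, and with both together (8) it was 7 to 8. CNN2 was the member lost there, with only the depleted and control groups in the fit (adjusted p = 0.134). For Si-FIBP#2 against Si-FIBP#1 the 5 members became 3 with no filter and also 3 with only the groups compared, and were 3 to 5 when 1 sample was left out. Of the members' transcripts, 27 passed with Si-FIBP#2, 17 with no filter and 17 to 26 with a sample left out, and 6 passed between the siRNAs, 2 with no filter, 1 with only the groups compared and 0 to 5 with a sample left out.

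Counts over the whole table moved as well. With a pseudocount of 0.1, the genes called at 2-fold went from 848 to 1498 with Si-FIBP#1, from 757 to 1411 with Si-FIBP#2, from 721 to 1418 with both and from 84 to 172 between the siRNAs, where leaving out a sample gave 73 to 128. Transcripts called went from 2547 to 4027, from 2085 to 3339 and from 2103 to 4001, and with a filter of 5 FPKM to 1369, 1104 and 1160. Between the siRNAs, 223 transcripts were called, 102 with no filter, 126 with only the groups compared, 148 with the replicate block and 108 to 306 with a sample left out. The cause of these changes was not tested.

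Deviations from the group means had correlations of -0.057 to 0.103 between samples with the same replicate number. Between samples with different numbers these were -0.142 to 0.049. Between the siRNA groups the ranges were apart, at 0.046 to 0.097 and -0.059 to 0.008, while between Scramble and the siRNA groups they overlapped. Whether a replicate number marks a shared batch was not tested. With the replicate block, 8 members passed with Si-FIBP#1, 9 with Si-FIBP#2, 8 with both and 4 between the siRNAs, and 853 genes were called with Si-FIBP#1. The block ended the call of TAGLN with Si-FIBP#1 (limma adjusted p = 0.0641). TAGLN, with few fragments behind it, is the member whose level depth limits most.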
